A study of Mus musculus with 6 samples.

Results

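The genes described here encode receptors for extracellular nucleotides and adenosine, together with Entpd1, the ectonucleotidase CD39. They were chosen by symbol from a list of 10 (P2rx1, P2rx4, P2rx7, P2ry2, P2ry10, P2ry14, Adora2a, Adora2b, Adora3 and Entpd1), and all 10 were present among the 23656 genes of the deposited tables. The study cultured lamina propria eosinophils of the small intestine, taken from BALB/c mice described as wild type, for 4 hours, either untreated (3 libraries) or with GM-CSF at 10 ng/ml (3 libraries), and asked which transcripts change. Polyadenylated RNA was sequenced. The labels give neither the method of isolation nor the number of mice behind the cultures, which were set up in triplicate. The p-values therefore concern the spread among these cultures, which may be technical.

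ATP and other nucleotides leave stressed or activated cells and act on P2X receptors, which are ion channels opened by ATP, and on P2Y receptors, which are coupled to G proteins. CD39 at the cell surface removes phosphates from ATP and ADP, CD73 (Nt5e) converts the resulting AMP to adenosine, and adenosine acts on its own G protein-coupled receptors. The receptors encoded by Adora2a and Adora2b raise cyclic AMP, and those encoded by Adora1 and Adora3 couple to inhibitory G proteins. Eosinophils are known to respond to ATP, to UDP-sugars and to adenosine.

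GM-CSF cultures held more RNA of the adenosine receptor genes Adora2b and Adora2a and of the UDP-glucose receptor gene P2ry14, and less of the ATP-gated channel genes P2rx1 and P2rx4 and of P2ry10. Adora2b went from near the lower limit of the data to 11.0 FPKM, 17.7 times the untreated mean. P2ry14, already abundant, rose 2.23-fold. Entpd1, the most abundant of the 10, measured 342.4 and 355.3 FPKM and did not pass the test. FPKM, the unit of all levels here, divides the fragments of a transcript by its length and by library depth.

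By limma on log2(FPKM + 1), with Benjamini-Hochberg adjustment over the 10140 genes that averaged 1 FPKM or more and a threshold of 0.05, 3 of the 10 rose, 3 fell, 3 did not pass and 1, P2rx7, was too low to be tested. Of all tested genes 7.6% rose and 14.2% fell, 21.8% together (771 and 1438 genes). This split was closer to even when libraries were scaled by median-of-ratios factors (1006 and 1041), by quantiles (949 and 1126) or to the same sum (789 and 913); the 3 rises and 3 falls among the 10 genes held under each of these scalings. The median log2 fold change was -0.06 over the 10 genes, with the untested P2rx7 included, and -0.05 over all tested genes. Over the 9 tested members the middle value was that of Entpd1, at 0.05. The groups of 8 of the 10, the untested P2rx7 included, did not overlap, as was the case for 39.2% of all tested genes. Adora2b passed the level filter only through its GM-CSF libraries.

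**Figure D1:**
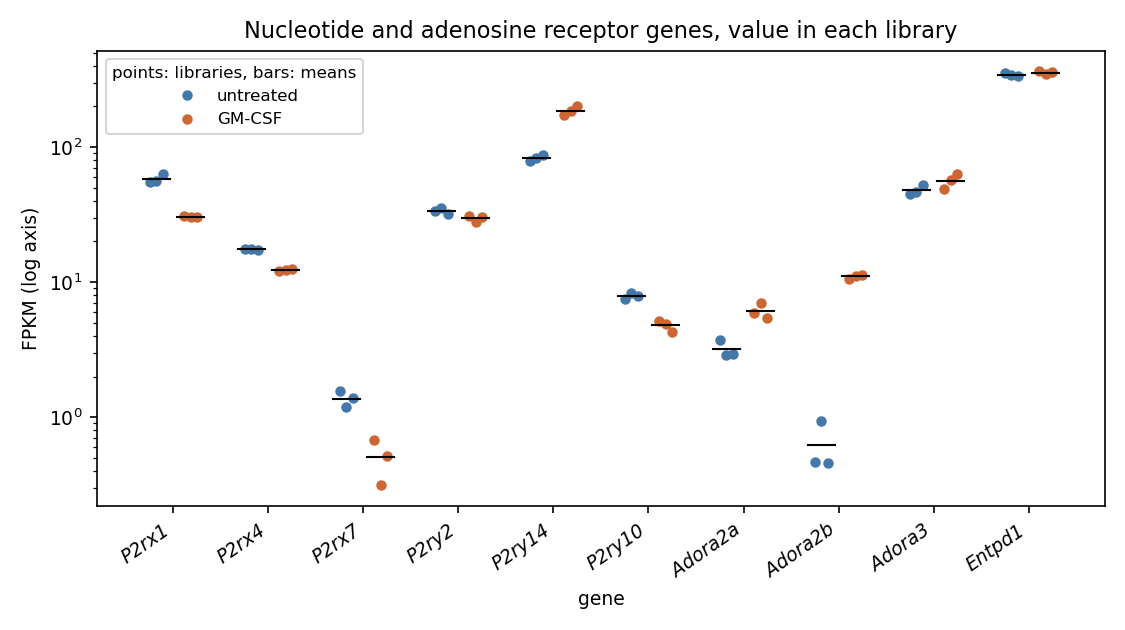
FPKM of the 10 genes (log axis) in each of the 3 untreated and 3 GM-CSF libraries (points) with group means (bars). Adora2b moved from below 1 FPKM in every untreated library to above 10 in every GM-CSF library, while Entpd1 stayed the highest gene in both groups.

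**Figure D2:**
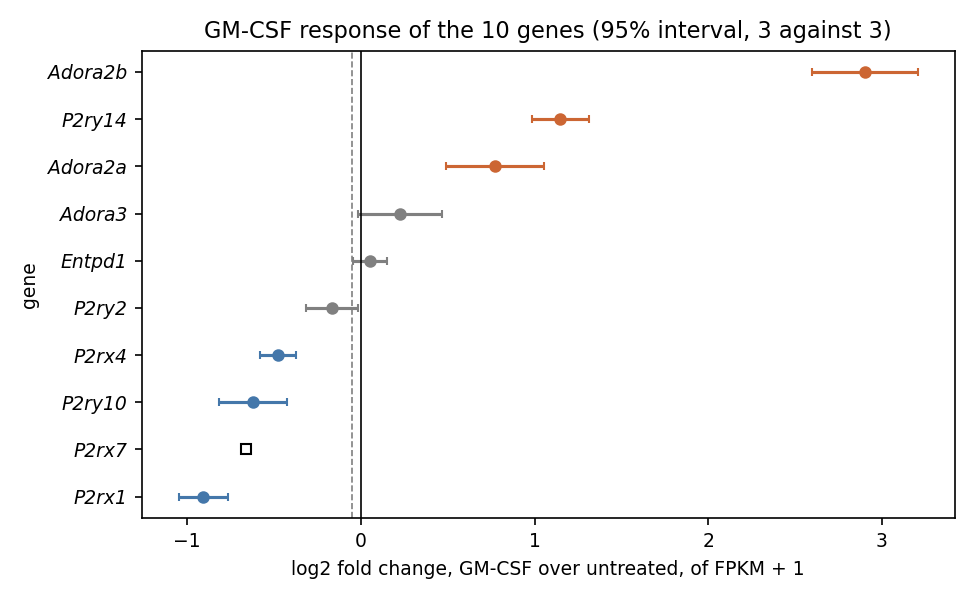
Log2 fold change of FPKM + 1 (GM-CSF over untreated, 3 libraries each) with its 95% interval from limma. Orange genes rose, blue genes fell and grey genes did not pass; the open square is P2rx7, which was not tested, and the dashed line is the median of all tested genes at -0.05.

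The stretch of genome before the annotated start is shown for the genes that passed the test, except Adora2a, so that the rising and falling genes can be set side by side. The sequences are the C57BL/6J reference (RefSeq, GRCm38.p6), not the BALB/c strain of the cells. Each is read 5′ to 3′ on the strand of its gene and stops before the first base that RefSeq or GENCODE places in the gene. Capitals mark the motifs searched. The first pair belongs to the genes with the 2 largest rises (Adora2b at chr11:62248734-62248983, plus strand, and P2ry14 at chr3:59153619-59153742, minus strand), and the other 3 belong to genes that fell (P2rx1 at chr11:72998895-72999055, P2rx4 at chr5:122707294-122707517 and P2ry10 at chrX:107088242-107088491, all plus strand).
Adora2b: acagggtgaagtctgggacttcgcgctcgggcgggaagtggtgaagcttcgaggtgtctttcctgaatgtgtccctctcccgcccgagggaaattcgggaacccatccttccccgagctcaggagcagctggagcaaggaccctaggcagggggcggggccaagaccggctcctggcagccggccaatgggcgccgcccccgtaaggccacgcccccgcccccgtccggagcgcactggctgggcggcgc
P2ry14: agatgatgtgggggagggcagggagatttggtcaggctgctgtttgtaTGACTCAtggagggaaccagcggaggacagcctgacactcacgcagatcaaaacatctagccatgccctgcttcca
P2rx1: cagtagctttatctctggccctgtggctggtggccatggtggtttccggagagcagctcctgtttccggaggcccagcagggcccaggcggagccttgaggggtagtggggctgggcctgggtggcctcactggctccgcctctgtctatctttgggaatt
P2rx4: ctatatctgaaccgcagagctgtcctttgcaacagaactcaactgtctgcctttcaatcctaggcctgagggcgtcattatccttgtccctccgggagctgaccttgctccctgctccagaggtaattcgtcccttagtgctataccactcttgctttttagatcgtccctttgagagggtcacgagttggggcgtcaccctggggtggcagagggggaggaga
P2ry10: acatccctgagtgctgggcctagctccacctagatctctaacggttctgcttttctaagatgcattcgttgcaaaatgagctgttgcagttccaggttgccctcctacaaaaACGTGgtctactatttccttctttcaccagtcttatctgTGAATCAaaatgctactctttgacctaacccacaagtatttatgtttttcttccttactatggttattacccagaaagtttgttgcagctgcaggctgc

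Motifs were searched on both strands of the 250 bases before each of 32851 annotated starts. The motifs were the STAT motif TTCNNNGAA (GM-CSF receptors activate STAT5), the cyclic AMP response element TGACGTCA, the AP-1 motif TGANTCA and the hypoxia response core ACGTG; the response element and the hypoxia core share the run ACGT. The STAT motif was in 7.02% of all windows, the cyclic AMP response element in 1.55%, the AP-1 motif in 6.75% and the hypoxia core in 16.6%. No STAT motif and no cyclic AMP response element stood in any window of the 9 genes that had one. The AP-1 motif stood 202 bases before the RefSeq start of P2ry14 and 144 bases before another annotated start inside that gene. The printed P2ry14 stretch stops at the GENCODE start, which is nearer to the marked motif. The AP-1 motif also stood 99 bases before the P2ry10 start, so it occurred in a gene that rose and in one that fell. It stood before the starts of Adora3 and P2rx7 as well. The hypoxia core stood 138 bases before the P2ry10 start and near that of P2ry2. The Adora2b window held none of the 4 motifs. It was rich in G and C (69.6%, with 22 CpG) against a median of 52.4% and 6 CpG over all windows. A match here describes letters and not binding.

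Of the 3 P2X channel genes among the 10, P2rx1 and P2rx4 fell and P2rx7 was not tested. The other P2X genes, P2rx2, P2rx3, P2rx5 and P2rx6, had group means of 0.183 FPKM or less. P2rx1 encodes a fast-desensitising ATP-gated channel. It lies on chromosome 11, from 72999056 to 73015200. It measured 54.7, 56.0 and 62.8 FPKM in the untreated libraries and 30.6, 30.1 and 30.1 in the GM-CSF libraries. All GM-CSF libraries lay below all untreated ones, and they lay closer together than the untreated ones did. The group means were 57.8 ± 4.34 and 30.3 ± 0.307 FPKM (SD, n = 3 each), a fall of 0.91 on the log2 scale (limma log2 fold change -0.91 with SE 0.06, adjusted p = 0.000149). P2rx1 was the member with the largest fall past the threshold.

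P2rx4 encodes a more slowly desensitising channel found on the surface and on lysosomes of many leukocytes. It lies on chromosome 5 (122707518 to 122729739). It measured 17.6, 17.6 and 17.3 FPKM in untreated and 12.1, 12.4 and 12.4 in GM-CSF libraries. The replicates of each group were very close to one another and the groups did not overlap. The means were 17.5 ± 0.192 and 12.3 ± 0.150 FPKM (SD, n = 3 each; limma log2 fold change -0.48 with SE 0.04, adjusted p = 0.000593).

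P2rx7 is the neighbour of P2rx4 on the same strand of chromosome 5 (122643927 to 122692336) and encodes the channel through which high ATP triggers inflammasome activation and IL-1 release in macrophages. It was low, at 1.56, 1.19 and 1.38 FPKM in untreated and 0.683, 0.313 and 0.520 in GM-CSF libraries. The groups did not overlap (p = 0.1 by an exact two-sided permutation test, the minimum for 3 against 3). Its mean of 0.940 FPKM was under the minimum for the test. With no filter on level it passed (limma log2 fold change -0.66 with SE 0.11, adjusted p = 0.0208). The GM-CSF values rested on 1314 to 1740 mapped bases per library spread over 4 listed transcripts, so transcript shares cannot be read. The full-length transcript of 4931 nt measured 0.673 ± 0.128 and 0.178 ± 0.136 FPKM (SD, n = 3 each). The transcript of 2563 nt went the other way, at 0.0606 ± 0.0793 and 0.257 ± 0.0862 FPKM (SD, n = 3 each). The remaining listed transcripts had lower means with GM-CSF. The log2 ratio of P2rx7 to P2rx4 (FPKM + 1) within a library overlapped between the groups (difference -0.18, exact two-sided permutation test, p = 0.2, adjusted over 3 pairs 0.2). This outcome depended on the added 1 FPKM. The plain ratio did not overlap, at 0.0672 to 0.0882 in untreated and 0.0253 to 0.0563 in GM-CSF libraries. With 0.1 FPKM added in place of 1, the log2 difference was -0.82 (exact two-sided permutation test, p = 0.1).

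Of the 3 P2Y genes among the 10, 1 rose, 1 fell and 1 did not pass. P2ry14 encodes the receptor for UDP-glucose and related UDP-sugars and lies on the minus strand of chromosome 3 (59114623 to 59153492). It measured 78.4, 83.5 and 87.6 FPKM in untreated libraries and 172.9, 183.9 and 200.8 with GM-CSF. The groups lay far apart, with the lowest GM-CSF library well above the highest untreated one. The means were 83.2 ± 4.61 and 185.9 ± 14.1 FPKM (SD, n = 3 each; limma log2 fold change 1.15 with SE 0.07, adjusted p = 0.000109). A rise past the threshold of at least 1 on the log2 scale was seen in 1.45% of tested genes.

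P2ry14 has 2 listed transcripts. Their shares moved from library to library within a group: the transcript NM_133200 took between 46.1% and 59.5% of the gene in untreated and between 47.3% and 71.1% in GM-CSF libraries. Over all transcripts tested singly, 12.7% changed. Of this pair, NM_133200 rose (limma log2 fold change 1.22 with SE 0.20, adjusted p = 0.0162). The other, NM_001008497, measured 37.5 and 77.2 FPKM (1.00, SE 0.24, adjusted p = 0.0540). The sum over both was the steadier measure.

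P2ry2, on chromosome 7 (100996568 to 101012053), encodes a receptor for ATP and UTP. It measured 33.4, 35.3 and 31.7 FPKM in untreated and 30.9, 27.6 and 30.5 in GM-CSF libraries. The groups did not overlap, but by a small margin, and the difference did not pass (log2 fold change -0.17, 95% interval -0.32 to -0.02, limma adjusted p = 0.115). P2ry10, on the X chromosome (107088492 to 107104974), is named for its sequence and is known as a lysophosphatidylserine receptor of lymphocytes and other leukocytes. It fell from 7.49, 8.27 and 7.91 to 5.18, 4.92 and 4.24 FPKM (limma log2 fold change -0.62 with SE 0.08, adjusted p = 0.00282), with all GM-CSF libraries below all untreated ones. The log2 ratio of P2ry14 to P2ry10 (FPKM + 1) within a library was 3.24 ± 0.0649 in untreated and 5.02 ± 0.230 in GM-CSF libraries (SD, n = 3 each; difference 1.77, exact two-sided permutation test, p = 0.1, adjusted over 3 pairs 0.15). Of the other lysophosphatidylserine receptor genes on the list, neither Gpr34 (23.7 and 29.1 FPKM, adjusted p = 0.210) nor P2ry10b (adjusted p = 0.0780), listed as A630033H20Rik, passed, and Gpr174 was under 1 FPKM.

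Both cyclic AMP-raising adenosine receptor genes rose, by unequal amounts. Adora2b lies on chromosome 11 (62248984 to 62266452) and encodes a receptor of low affinity for adenosine. It measured 0.467, 0.945 and 0.455 FPKM in untreated libraries and 10.5, 11.2 and 11.4 with GM-CSF. The untreated values were scattered, with replicate 2 at about double the others, and rested on 768.3 to 1698 mapped bases per library, less than the transcript's own length of 1844 nt in each. The GM-CSF values rested on 17186 to 27255 mapped bases and were close together. The means were 0.622 ± 0.280 and 11.0 ± 0.430 FPKM (SD, n = 3 each; limma log2 fold change 2.90 with SE 0.13, adjusted p = 3.22e-05). Only 23 of the 10140 tested genes, Adora2b among them, rose by as much on this scale, or 0.227%. Adora2b entered the tested genes only through its GM-CSF libraries, so its p-value and this rank are given only as a description. Its limma adjusted p was 0.000282 with no filter on level. With a pseudocount of 0.1 in place of 1, the log2 fold change was 4.01.

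Adora2a, on chromosome 10 (75316877 to 75334792), encodes the high-affinity member of the pair, which restrains activation in many leukocytes. It measured 3.71, 2.88 and 2.91 FPKM in untreated and 5.91, 7.01 and 5.44 in GM-CSF libraries, without overlap. It rose 1.93-fold (limma log2 fold change 0.77 with SE 0.12, adjusted p = 0.00501). The order of the pair turned: Adora2b stood at 0.126 to 0.328 times Adora2a in untreated libraries and at 1.59 to 2.09 times in GM-CSF libraries. The log2 ratio of Adora2b to Adora2a (FPKM + 1) differed by 2.13 between the groups (exact two-sided permutation test, p = 0.1, adjusted over 3 pairs 0.15). With a pseudocount of 0.1 the difference was 3.08.

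The deposited symbol Adora3 covers 3 transcripts, and RefSeq on GRCm38.p6 gives only 1 of them, NM_009631, to the A3 receptor gene (chromosome 3, 105904421 to 105908928). It gives the other 2, NM_001174169 and NM_027025, to the overlapping gene Tmigd3 (105870858 to 105924044) on the same strand. The sum under the symbol was 44.7, 46.4 and 52.6 FPKM in untreated and 49.3, 56.7 and 62.8 in GM-CSF libraries, and the groups overlapped (limma log2 fold change 0.23 with SE 0.10, adjusted p = 0.171). The A3 receptor transcript held between 65.8% and 72.9% of the sum in the 6 libraries. It measured 31.6, 33.8 and 36.1 FPKM untreated and 35.9, 37.3 and 42.0 with GM-CSF, which also overlapped (0.18, SE 0.08, limma adjusted p = 0.229 over transcripts). NM_001174169 measured 8.71 ± 1.37 and 13.5 ± 3.20 FPKM (SD, n = 3 each; limma adjusted p = 0.143), and NM_027025 5.35 ± 0.723 and 4.36 ± 0.791 (adjusted p = 0.365), so neither Tmigd3 transcript passed. The sources used here do not say how fragments common to these overlapping transcripts were divided.

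**Figure D3:**
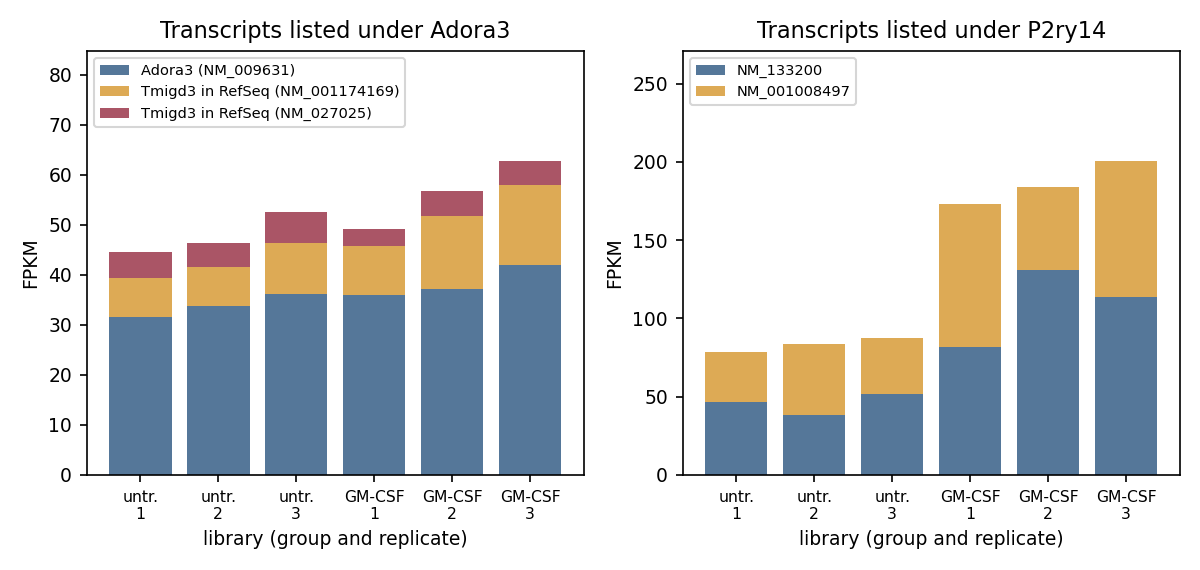
FPKM of each listed transcript, stacked, in the 6 libraries for Adora3 (left) and P2ry14 (right). Under Adora3 the A3 receptor transcript held 65.8% to 72.9% of the stack; under P2ry14 the stack roughly doubled while the split between its 2 transcripts varied within each group.

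Entpd1, on chromosome 19 (40612366 to 40741602), encodes CD39, the enzyme that removes ATP and ADP from the cell surroundings. It measured 354.6, 338.8 and 334.0 FPKM in untreated and 362.3, 345.3 and 358.3 in GM-CSF libraries. The groups overlapped, and the log2 fold change was 0.05 (95% interval -0.04 to 0.15, limma adjusted p = 0.420). Its mean level was above that of 98.0% of tested genes. Nt5e (CD73), the next enzyme toward adenosine, was under the minimum, at 0.494 ± 0.0583 FPKM in untreated and 0.277 ± 0.0741 in GM-CSF libraries (SD, n = 3 each).

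In untreated libraries the means ran Entpd1, P2ry14, P2rx1, Adora3, P2ry2, P2rx4, P2ry10, Adora2a, P2rx7 and Adora2b, and no neighbours in that order overlapped, with Adora3 as the sum under its symbol. The A3 receptor transcript alone, at 31.6 to 36.1 FPKM untreated, overlapped P2ry2 at 31.7 to 35.3. With GM-CSF the order was Entpd1, P2ry14, Adora3, P2rx1, P2ry2, P2rx4, Adora2b, Adora2a, P2ry10 and P2rx7. There only P2rx1 and P2ry2 overlapped. Adora2b moved from the last place to the seventh and P2ry10 from the seventh to the ninth.

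The other genes of the pathway were described as 5 lists with 75 entries, of which 44 reached 1 FPKM and were tested. Of these, 4 rose, 9 fell and 31 did not pass, against 7.6% of all tested genes rising and 14.2% falling. Few other receptors of the family were present: of 10, 8 stayed under 1 FPKM on average, among them Adora1 and P2ry1. P2ry13, an ADP receptor gene, rose from 10.5 ± 1.09 to 22.4 ± 2.80 FPKM (SD, n = 3 each; limma log2 fold change 1.02 with SE 0.11, adjusted p = 0.00121). P2ry6, a UDP receptor gene beside P2ry2, fell from 2.90 to 1.53 FPKM (-0.63, SE 0.08).

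Of 11 tested genes for nucleotide and adenosine metabolism, 1 fell and 10 did not pass (median log2 fold change -0.11). That was Entpd5, an intracellular nucleotidase gene, from 6.19 to 4.59 FPKM (-0.36, SE 0.07). Of 5 tested genes for release and uptake, 1 fell, the nucleoside transporter gene Slc28a2 (9.44 to 7.70 FPKM, -0.26, SE 0.06), a call that ended when untreated replicate 2 or 3 or GM-CSF replicate 1 or 3 was left out, and with quantile or same-sum scaling. The transporter gene Slc29a1 measured 23.6 and 23.6 FPKM, and the pannexin gene Panx1, a route of ATP release, was under the minimum.

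Of 24 tested genes that couple these receptors to their signals, 3 rose, 6 fell and 15 did not pass (median log2 fold change -0.10). The stimulatory and inhibitory G protein genes Gnas (278.4 and 280.7 FPKM) and Gnai2 (355.5 and 362.2) were abundant and did not pass. Gnaq, which links receptors to phospholipase C, rose by 0.35 on the log2 scale (SE 0.07). The phospholipase gene Plcb2 fell by 0.50 (SE 0.04), from 39.6 to 27.7 FPKM, and Plcb3 fell by 0.29 (SE 0.06). The adenylate cyclase gene Adcy7 fell by 0.36 (SE 0.06). Of the cyclic AMP phosphodiesterase genes, Pde4b rose from 34.2 to 48.4 FPKM (0.49, SE 0.07), Pde4a fell from 4.53 to 2.58 (-0.63, SE 0.09) and Pde4d measured 6.26 and 6.25. Crem, a cyclic AMP-responsive transcription factor gene, rose by 0.43 (SE 0.09). Arrb2 fell by 0.38 (SE 0.05) and Grk6 by 0.38 (SE 0.06); both serve receptor desensitisation. The call for Crem ended without GM-CSF replicate 1, that for Entpd5 without untreated replicate 2, and that for Plcb3 when any library other than untreated replicate 2 was left out, and with the same sum in each library. With the highest transcript standing for its gene, the calls for Crem, Entpd5, Adcy7 and Pde4a ended.

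**Figure D4:**
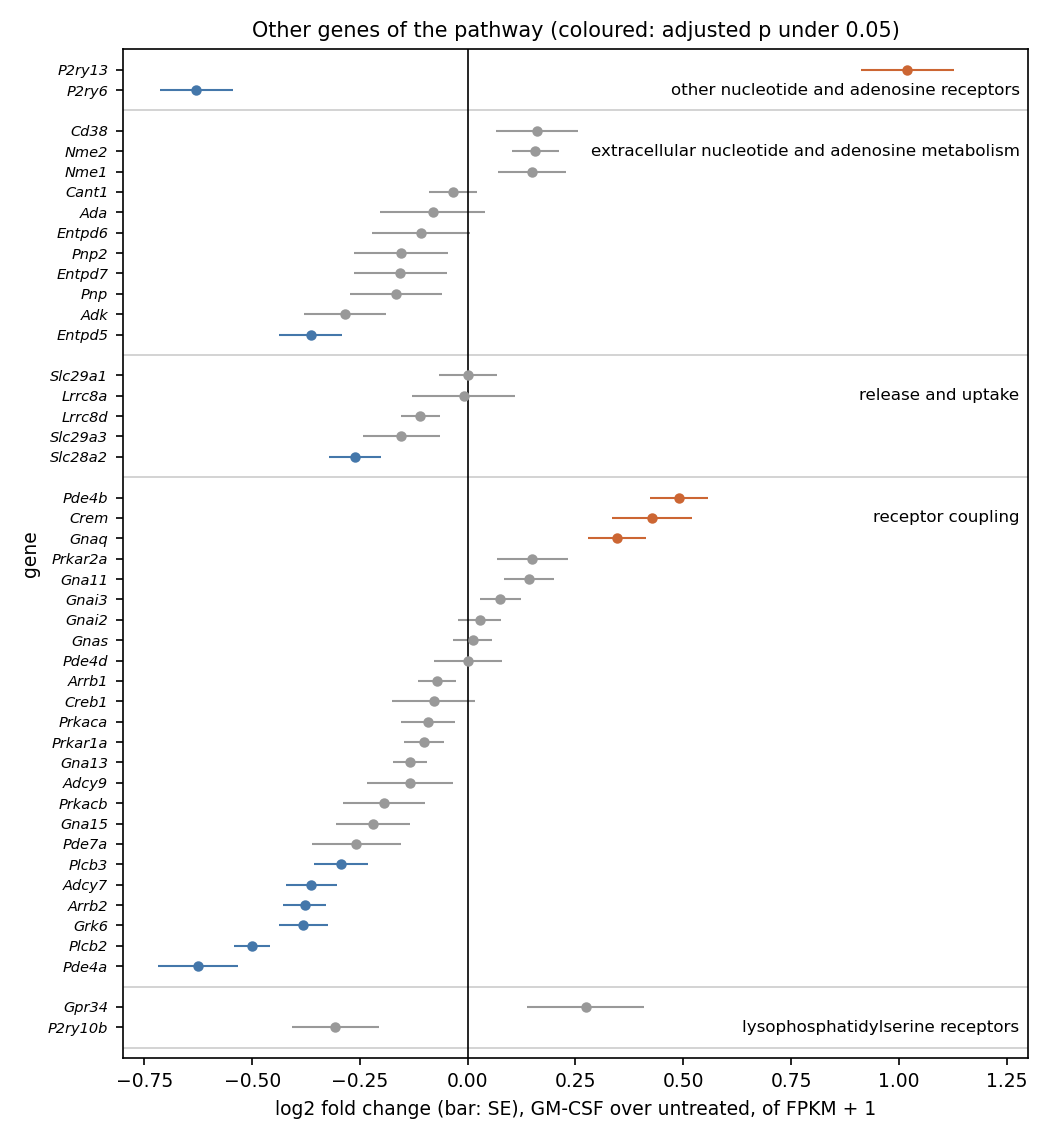
Log2 fold change of FPKM + 1 with its SE (GM-CSF over untreated, 3 libraries each) for the 44 tested genes of 5 lists. Orange genes rose, blue genes fell and grey genes did not pass; P2ry13 at 1.02 stands apart from the rest.

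P2ry14 and P2ry13 are neighbours, within the span of Med12l, which runs on the opposite strand. The protein-coding genes within 200 kb of P2ry14 that averaged 0.5 FPKM or more were therefore read together, a choice made after their values were seen. Gpr171, a receptor gene on the other side of P2ry14 from P2ry13, measured 5.40, 6.23 and 5.73 FPKM in untreated and 37.8, 37.7 and 36.4 in GM-CSF libraries (limma log2 fold change 2.50 with SE 0.06, adjusted p = 4.59e-06). Med12l itself rose from 0.892 to 1.72 FPKM (0.53, SE 0.09, limma adjusted p = 0.00716). It passed the level filter only through its GM-CSF libraries, so this p-value is given only as a description. P2ry12, further along the same stretch, measured 1.16 and 0.784 FPKM and was under the minimum, as was Igsf10. The library kit keeps strand, but the sources used here do not say whether the counting used it, so reads of Med12l and of the genes opposite it may not have been separated.

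**Figure D5:**
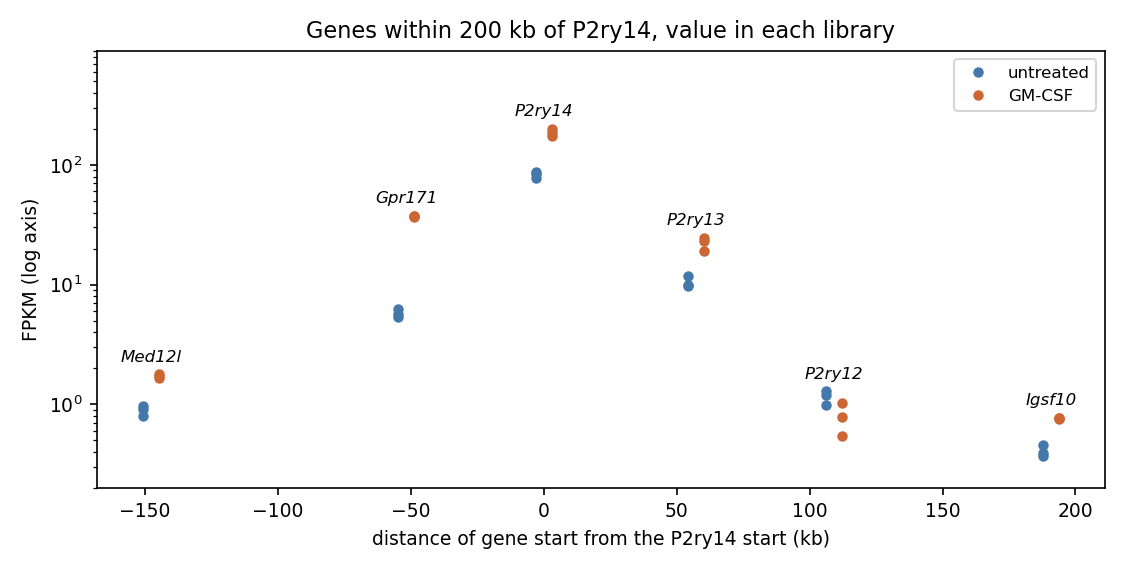
FPKM (log axis) in each library of P2ry14 and the 5 protein-coding genes within 200 kb that averaged 0.5 FPKM or more, by the distance of each gene's start from that of P2ry14. Points of the 2 groups are drawn side by side. All genes drawn except P2ry12 were higher in every GM-CSF library than in any untreated one.

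The genes with the profile most like that of the largest riser and the largest faller were found by the root mean square difference of centred log2(FPKM + 1) over the 6 libraries. For Adora2b they were Cish (difference 0.11, log2 fold change 3.07), Pim2 (0.12, log2 fold change 2.94) and Egln3 (0.13, log2 fold change 3.11). This nearness holds on a scale where the added 1 FPKM lowers the fold change of Adora2b, which was 4.01 with 0.1 FPKM added. Mean FPKM went from 0.622 to 11.0 for Adora2b, 17.9 to 156.7 for Cish, 2.66 to 26.9 for Pim2 and 2.05 to 25.3 for Egln3. For P2rx1 they were Pdcd4 (0.04, log2 fold change -0.93), Csf1r (0.05, log2 fold change -0.86) and Tmem71 (0.05, log2 fold change -0.99).

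Markers of other cell types moved as well, and fewer cells of a type cannot be told apart from less RNA per cell in bulk libraries. The 8 T cell markers summed to between 29.3 and 30.2 FPKM in untreated and between 15.9 and 18.6 in GM-CSF libraries, with 4 of 5 tested markers falling. The 7 B and plasma cell markers summed to 31.0 to 38.5 and 16.7 to 17.7, with 5 of 5 tested markers falling. Of these, Mzb1 (2.01 and 0.725 FPKM) passed the level filter only through its untreated libraries, so its call is given only as a description. The 10 macrophage and dendritic cell markers summed to 139.1 to 160.6 and 98.1 to 103.0, with 4 of 4 tested markers falling. Emr4 made up most of this sum, at 93.3 and 65.4 FPKM. The 6 markers not tested averaged under 1 FPKM, among them C1qa, C1qb and C1qc with group means of 0.332 FPKM or less. The neutrophil markers (7 of 8 matched) summed to 1342 to 1457 and 1039 to 1049, nearly all of it Retnlg (2 of 3 tested markers fell), with Camp and Elane at 0 in every library. The 7 mast cell markers overlapped between groups (14.5 to 26.1 and 11.7 to 15.4), 2 of 4 tested markers fell and Tpsb2 was at 0. Epithelial markers summed to 86.7 to 95.1 and 56.7 to 72.0 (4 of 8 tested markers fell). Endothelial and stromal markers summed to 151.8 to 168.8 and 117.7 to 132.5, nearly all of it Pecam1 (1 of 2 tested rose and 1 fell). The 5 endothelial and stromal markers not tested, among them Cdh5 and Col1a1, had group means of 0.0424 FPKM or less. Except for that of the mast cell markers, whose groups overlapped, the sums of these lists were lower with GM-CSF. So were P2rx1, P2rx4, P2ry10 and P2rx7, the last of which was not tested. The part of other cells in the lower levels of these 4 genes was not tested. Of all tested genes 14.2% fell. Among all tested markers Pdgfra alone rose, from 3.50 to 8.27 FPKM, beside the rises of Adora2b, Adora2a and P2ry14; the part of other cells in those rises was not tested. The 8 eosinophil markers summed to 1452 to 1647 FPKM in untreated and 1077 to 1247 in GM-CSF libraries, so this sum fell as well. Of the 8, 4 fell (Alox15, Il5ra, Epx and Cebpe) and 4 did not pass. Alox15 went from 460.6 to 157.0 FPKM. Siglecf, listed as Siglec5, did not pass and measured about 170.2 FPKM over all libraries, so the defining surface marker of the labelled cell type was abundant in both groups.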

How the data were processed

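RNA from 6 eosinophil cultures was sequenced from a stranded mRNA kit, per the labels' protocols. Reads were handled by the authors with bcl2fastq 1.8.4, TopHat, TopHat2 and Cufflinks on mm10, per the submitters' processing notes; options and counting strand are not given in the sources used here. The deposited values are FPKM per RefSeq transcript, with a coverage signal, a percent of the major isoform and a length, per the file headers. Coverage times length gave the mapped bases of a transcript. The median of coverage divided by FPKM, over transcripts above 1 FPKM, put the libraries between 0.820 and 1.32 mapped gigabases. Read counts were not used here.

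FPKM were summed per symbol and locus. limma 3.58.1 in R 4.3.3 (empirical Bayes with a trend) was fitted to log2(FPKM + 1) for all genes averaging 1 FPKM or more, without covariates, and p-values were adjusted by Benjamini-Hochberg; fold changes on this scale understate the change of low genes. Single values were tested by exact permutation. The limma fit was tested on simulated data with known changes. The 10 genes, every list member past the threshold (the 2 most abundant where none passed), and the 3 genes nearest in profile to the largest riser and faller were named, passing over predicted genes and clones; a few other list members are named as well, chosen after their values were seen. Members, lists and motifs were chosen with earlier results of these data known. Alternatives were another pseudocount, filter, scaling or summing, no trend, a replicate block and leaving out each library.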

Additional observations from a re-analysis of the deposited data

How the results depend on the processing

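The calls of Adora2b, P2ry14, P2rx1, P2rx4 and P2ry10 held in all 17 alternatives run for each, and that of Adora2a in all 16. A filter at a mean of 5 FPKM leaves Adora2a out of the test. Adora2b passed each filter on level only through its GM-CSF libraries, so its calls under a filter are given only as a description. Their log2 fold changes ranged from 2.83 to 4.01 for Adora2b, 1.09 to 1.22 for P2ry14, 0.68 to 0.93 for Adora2a, -0.95 to -0.85 for P2rx1, -0.51 to -0.42 for P2rx4 and -0.72 to -0.56 for P2ry10. Over all genes, the number lower was 913 with the same sum in each library against 1438; it ranged from 890 to 1129 when 1 library was left out, and was 890 without untreated replicate 2. The cause was not tested. P2rx7 passed by limma with no filter on level (-0.66, adjusted p = 0.0208). With 1 library left out its difference ranged from -0.75 to -0.57, and its mean reached the minimum for the test without GM-CSF replicate 2 (adjusted p = 0.0319) or 3 (adjusted p = 0.0395). There it passed the filter only through its untreated libraries, so these p-values are given only as a description.

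Same-numbered libraries did not deviate together (correlations of -0.03, 0.05 and -0.02), and not every library correlated best with its own number, so the numbers were not read as pairs. With a replicate block, 1991 genes changed (719 higher, 1272 lower) against 2209, and Adora3 passed (0.23, adjusted p = 0.0379). Depth limits P2rx7 and untreated Adora2b most. The transcript fits were not repeated under the alternatives.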

Other observations

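Genes within 200 kb of the receptor genes and Entpd1 were looked up after their values were seen. Of 37 such tested genes, with the 10 themselves left out, 8 rose and 2 fell, or 27% together, against 21.8% of all tested genes. The share of both directions together was near the background. Of all tested genes 7.6% rose and 14.2% fell, a split that was closer to even under other scalings. No conclusion is drawn from the split near the 10 genes, which rests on 10 calls in a set read after its values were seen. Among the 8 rises, Med12l passed the level filter only through its GM-CSF libraries. Beside Adora2b, Zswim7 rose from 7.14 to 13.5 FPKM (log2 fold change 0.83, limma adjusted p = 0.00141) and Ttc19, which encodes a mitochondrial complex III factor, from 4.88 to 7.12 FPKM (0.46, adjusted p = 0.00777). Beside P2ry2, the TNF receptor family gene Relt rose from 27.1 to 62.5 FPKM (1.17, adjusted p = 0.000101) and Fchsd2 from 1.42 to 2.46 FPKM (0.51, adjusted p = 0.0333), while P2ry6 fell. Beside Entpd1, the proline synthesis gene Aldh18a1 rose from 5.02 to 8.44 FPKM (0.65, adjusted p = 0.00426). Beside Adora3, Wdr77 fell from 13.9 to 11.4 FPKM (-0.26, adjusted p = 0.0313). The other 3 rises were those of Gpr171, P2ry13 and Med12l beside P2ry14.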
